A study of Gallus gallus with 6 samples.

Results

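The untreated basal basilar papilla (BP) of the chick was profiled on 2 of the 6 arrays of the study, the arrays titled as controls at 0 hrs. The BP is the auditory epithelium of birds, and the study was designed around the loss of hair cells (HCs) after the aminoglycoside gentamicin. The other 4 arrays, from chicks given gentamicin, were not used here. Both control arrays hold RNA of wild type chicks of 12 to 16 days of age without gentamicin, taken from the dissected basal part of the BP and pooled before labelling. Each pool joined several tissue samples of the time point. The sex of the chicks was not given in the sources used here, and HINTW, on the W chromosome that only females carry, was bright on both arrays (11.51 and 11.09). The arrays are called control 1 and control 2 after their titles, although both carry replicate number 2 in another label. By the titles they are biological replicates, and the spread between them is called one between pools, which the labels do not settle. With 1 array a pool no test could be run, so that every difference below is a description of these 2 arrays.

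The BP holds mechanosensory HCs, whose apical bundle of actin-filled stereocilia opens transduction channels when it is deflected, and supporting cells (SCs), which surround them and are joined by gap junctions. In birds the SCs are the source of new HCs after damage. The epithelium is covered by the tectorial membrane, an acellular matrix, and lies on a basilar membrane next to connective tissue, nerve fibers, blood vessels and the ion-transporting tegmentum vasculosum.

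The 38535 probe sets of the array include 153 for controls, and of the other 38382, 27168 carried exactly 1 gene symbol, 177 several and 11037 none. The 27168 stood for 13009 genes, each given by its brightest probe set. Levels are log2 of the deposited intensity. The order of the genes is an order of brightness: since probes differ in how strongly they bind, a brighter gene was not shown to have more RNA than a dimmer gene. In tissue RNA, moreover, fewer cells of a type and less RNA per cell cannot be told apart. The mean level over both arrays had a median of 6.45 across genes. The brightest 10%, 1301 genes, lay at 10.39 or above, 4418 genes were over 8, and 3713 genes (28.5%) were under an intensity of 32 on both arrays. Of the 1301 brightest genes of either array, 1167 (89.7%) were among the brightest of the other. Across the 13009 genes, which are not independent and share the 2 libraries, the levels correlated with r = 0.97.

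The brightest gene of the papilla was GJB6, a connexin of gap junctions, at 13.58 on control 1 and 13.55 on control 2 (mean 13.56 ± 0.02, SD, n = 2). A tectorial membrane protein, calcium-binding proteins, the protein synthesis machinery and an enzyme of glycolysis shared the top of the order with it. TECTB, which encodes beta-tectorin of the tectorial membrane, was at 13.32 and 13.33. CALB1, the calcium buffer calbindin, was at 13.22 and 13.28, and OCM1, oncomodulin, a small calcium-binding protein of the parvalbumin family, at 13.06 and 13.03. The glycolytic enzyme enolase, ENO1, was at 13.06 and 13.08. The difference between the arrays was 0.06 or less for each of these 5 genes.

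Among the 30 brightest genes were 11 of ribosomal proteins, with RPL9, RPS6 and RPL35 first, and 3 translation factors, EEF1A1 (13.35 and 13.37), EIF4A2 (13.28 and 13.35) and EEF1D (13.08 and 13.01). CSRP2, a LIM domain protein, was at 13.31 and 13.38. SEC61B of the translocon of the endoplasmic reticulum was in the 30 on a probe set that can bind several transcripts. So were EEF1A1, EIF4A2, ACTG1, SLC25A6, RPL27, RPL3 and RPS20. The dimmest of the 6 probe sets of SEC61B was at 2.57. Dim probe sets were also found for EEF1A1 (2.43), EEF1D (4.11) and TECTB (5.24). The histone gene H3F3B, the cytoplasmic actin gene ACTG1, the chaperone gene HSPA8 and SLC25A6, an adenine nucleotide carrier of mitochondria, also fell in the 30. ID2, an inhibitor of basic helix-loop-helix factors, was at 13.04 and 12.73. The rest of the 30 were C9ORF58, ITM2A, DNER, a transmembrane protein related to Notch ligands, and APP, the amyloid precursor protein. The 100 brightest genes held 29 of ribosomal proteins, 7 translation factors, 4 of glycolysis, 3 of heat shock proteins and chaperones, 3 of the SC list and 2 of the respiratory chain, and no gene among them differed by more than 0.36 between the pools. Another 8 of the 100 brightest probe sets carried no symbol and are not in this order. The order itself was looser than the levels, since 19 of the 30 brightest and 86 of the 100 brightest genes of control 1 were also those of control 2.

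To describe the tissue by kind, genes were grouped in 34 lists. Figures for each list are set beside those of all genes, of which 10% were by this definition in the brightest 10% and 28.5% under 32 on both arrays. The plot of list levels gives every member.

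**Figure D1:**
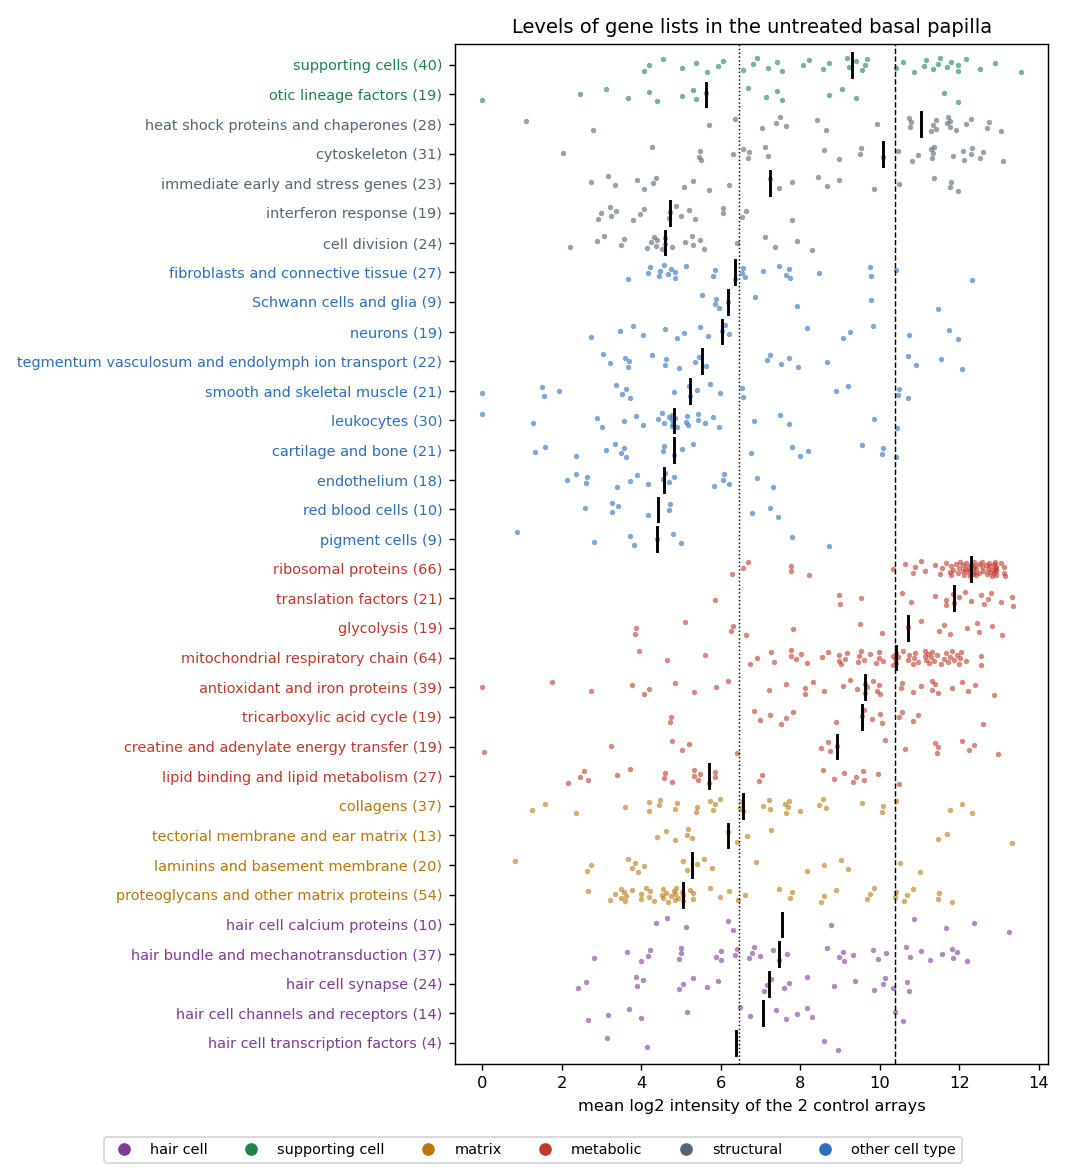
Mean log2 intensity of the 2 control arrays for each member (points) of 34 gene lists, with the number of genes measured in brackets and the list median as a black bar. Colours mark the kind of list, the dotted line the median of all genes (6.45) and the dashed line the lower edge of the brightest 10% (10.39). Ribosomal proteins have the highest median (12.29) and pigment cells the lowest (4.40).

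Of the genes of HCs, 89 in 5 lists were measured, with a median level of 7.33. Of these, 16 were in the brightest 10% and 19 under 32 on both arrays. The hair bundle list held 37 measured genes of 46 listed, of which 9 were in the brightest 10% and 6 were under 32. Its brightest member was CLIC5, a protein of the base of stereocilia in the mouse, at 12.11 and 12.28. MYO1H, an unconventional myosin, followed at 11.95 and 11.91, and RDX, radixin, which ties actin to the cell membrane, at 11.91 and 11.77. These 3 genes differed by less than 0.2 between the pools.

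Other bundle genes of the brightest 10% act on actin or on the transduction complex. EPS8L2, a regulator of actin at stereocilia, was at 11.81 and 11.84, and the harmonin gene USH1C at 11.50 and 11.61. The actin crosslinker PLS3 was at 11.31 and 11.21, and CIB2, which binds the transduction channel in mouse HCs, at 11.02 and 11.05. CALML4 (10.90 and 10.62) and ELMOD1 (10.05 and 11.27) completed the 9, and ELMOD1 was the least even of them. The tip link genes stood lower, CDH23 at 6.25 and 6.47 and PCDH15 at 7.23 and 7.69. Of the channel genes, TMC1 was at 6.84 and 6.74 and TMC2 at 6.42 and 8.24, so that the difference was -1.82 for TMC2 and 0.10 for TMC1 (control 1 minus control 2).

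Some classical bundle genes were below the median of all genes (6.45). Of the genes named here, SLC26A5 and WHRN were under 32 on both arrays and MYO7A was not. MYO7A, the myosin of Usher syndrome type 1, was at 6.29 and 5.73, and SLC26A5, prestin, at 4.45 and 3.92. WHRN, whirlin, was at 1.99 and 3.64 and was the dimmest gene of the list. A dim probe set does not show that the gene is silent, since its brightness also depends on where its probes lie.

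Of 18 calcium-binding genes listed for HCs, 10 were measured, with a median of 7.54, 4 in the brightest 10% and 2 under 32. Oncomodulin was listed under the symbol OCM, so OCM1, given above and brighter than CALM2, is in none of the counts of HC genes. Among the 10, CALB1 was followed by the calmodulin gene CALM2 (12.27 and 12.46) and CABP1, a relative of calmodulin (11.63 and 11.69). ANXA5, an annexin (10.69 and 11.01), came next. S100A1 was the exception to this evenness, at 10.05 on control 1 and 7.52 on control 2. CALB2, calretinin, was at 6.76 and 5.85, and PVALB, parvalbumin, at 4.55 and 4.73.

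Of the synapse, 24 genes of 31 listed were measured, with a median of 7.21, 2 in the brightest 10% and 5 under 32. CTBP2, which encodes the ribbon protein RIBEYE, was at 10.84 and 10.61 and RIMS1, of the active zone, at 10.60 and 10.75. CACNA1D, the calcium channel that drives transmitter release from HCs, was at 10.20 and 10.47. Genes of vesicle recycling were close to it, with SNAP91 at 9.78 and 10.48 and DNM1, dynamin, at 9.87 and 10.28. OTOF, otoferlin, the calcium sensor of release, was at 9.48 and 8.22. SLC17A8, the vesicular glutamate transporter of HCs, was at 5.96 and 5.89. Of the 24, 18 were higher on control 2 and 6 on control 1, with a median difference of -0.30, while 51.1% of all genes were higher on control 2.

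Of the channels and receptors, 14 genes of 20 listed were measured, with a median of 7.07. ATP2A3, a calcium pump of the endoplasmic reticulum, was at 10.45 and 10.73. CHRNA9 (7.81 and 7.48) and CHRNA10 (8.14 and 8.47), the subunits of the receptor for efferent input to HCs, were within 0.4 of each other between the pools, as was KCNN2 (8.02 and 7.81), the potassium channel coupled to that receptor. The potassium channel genes of HC tuning and rest were less even. KCNMA1, the subunit that forms the pore of the large-conductance channel, was at 7.24 on control 1 and 9.11 on control 2, and all of its 4 probe sets were lower on control 1, with differences from -1.86 to -0.76. KCNAB1, a potassium channel beta subunit, was at 9.68 and 11.08, and KCNJ2, an inward rectifier, at 3.76 and 6.53. The 2 other measured subunits of the large-conductance channel did not share 1 direction, with KCNMB4 at 6.94 and 6.55 and KCNMB1 at 2.92 and 4.46.

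Of 8 transcription factors listed for HCs, 4 were measured. IKZF2 (8.75 and 9.15), which is needed by outer HCs of the mouse, and RFX3 (8.32 and 8.88) were above the median of all genes. LHX3 (4.05 and 4.25) and ATOH1 (3.55 and 2.73), the factor that starts HC differentiation, were under 32 on both arrays. POU4F3 and GFI1 had no probe set with that single symbol and were not analysed here.

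The SC list had a higher median level than each of the HC lists. Of 50 genes listed, 40 were measured, with a median level of 9.31, 16 in the brightest 10% and 3 under 32. The order of list medians also depends on how the genes were picked and was not tested. After GJB6 and ID2 came FGFR3, the fibroblast growth factor receptor of SCs, at 12.45 and 12.60. EPCAM, an adhesion protein of epithelia, was at 12.18 and 12.16, and S100A6, a calcium-binding protein, at 12.35 and 11.60. GATA3, a transcription factor of the inner ear, was at 12.06 and 11.86. A second gap junction gene, GJA1 (connexin 43), was at 10.84 and 10.90.

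The Notch pathway, by which HCs keep their neighbours from becoming HCs, was measured at several steps. The receptor NOTCH1 was at 10.24 and 9.0 and NOTCH2 at 8.82 and 8.35. The 5 probe sets of NOTCH1 disagreed, with differences from -1.89 to 2.31. Of the ligands, JAG1 was at 9.25 and 9.20 and JAG2 at 5.98 and 7.13. LFNG, a glycosyltransferase that modifies the receptor, was at 11.70 and 11.67. The targets HEY1 (11.83 and 11.76) and HES5 (9.57 and 9.78) were within 0.3 between the pools, and HEY2 was lower, at 6.01 and 5.84. LFNG and HEY1 were in the brightest 10% on both arrays.

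SLC1A3, a glutamate transporter of SCs and glia, was at 11.26 and 11.79, and GLUL, glutamine synthetase, at 10.75 and 10.40. CDKN1B, the cell cycle inhibitor p27, was at 11.25 and 11.09. Of the SOX factors, SOX10 was at 11.60 and 11.33, SOX9 at 9.80 and 8.99 and SOX2 at 6.96 and 7.89. PROX1 was at 8.45 and 9.0. LGR5, a receptor of Wnt signalling that marks progenitors among mouse SCs, was at 5.51 and 5.81, LGR6 at 3.83 and 4.54, and FGF20 at 3.90 and 4.27, which put the last pair among the 3 SC genes under 32. By brightest probe set, no SC gene differed by over 2 between the pools. Of the 40, 28 were higher on control 1 (median difference 0.18), against 48.6% of all genes.

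The 19 measured otic lineage factors, 7 of which are also in the SC list, had a median of 5.63. NR2F2, a nuclear receptor, was at 11.58 and 11.66 and was the other member in the brightest 10% beside GATA3. DLX5 was at 9.22 and 8.90 and EYA1 at 7.55 and 7.54. OTX2 differed by over 2, at 4.17 and 2.06, and HMX3 was at the lowest value of the table, an intensity of 1, on both arrays.

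**Figure D2:**
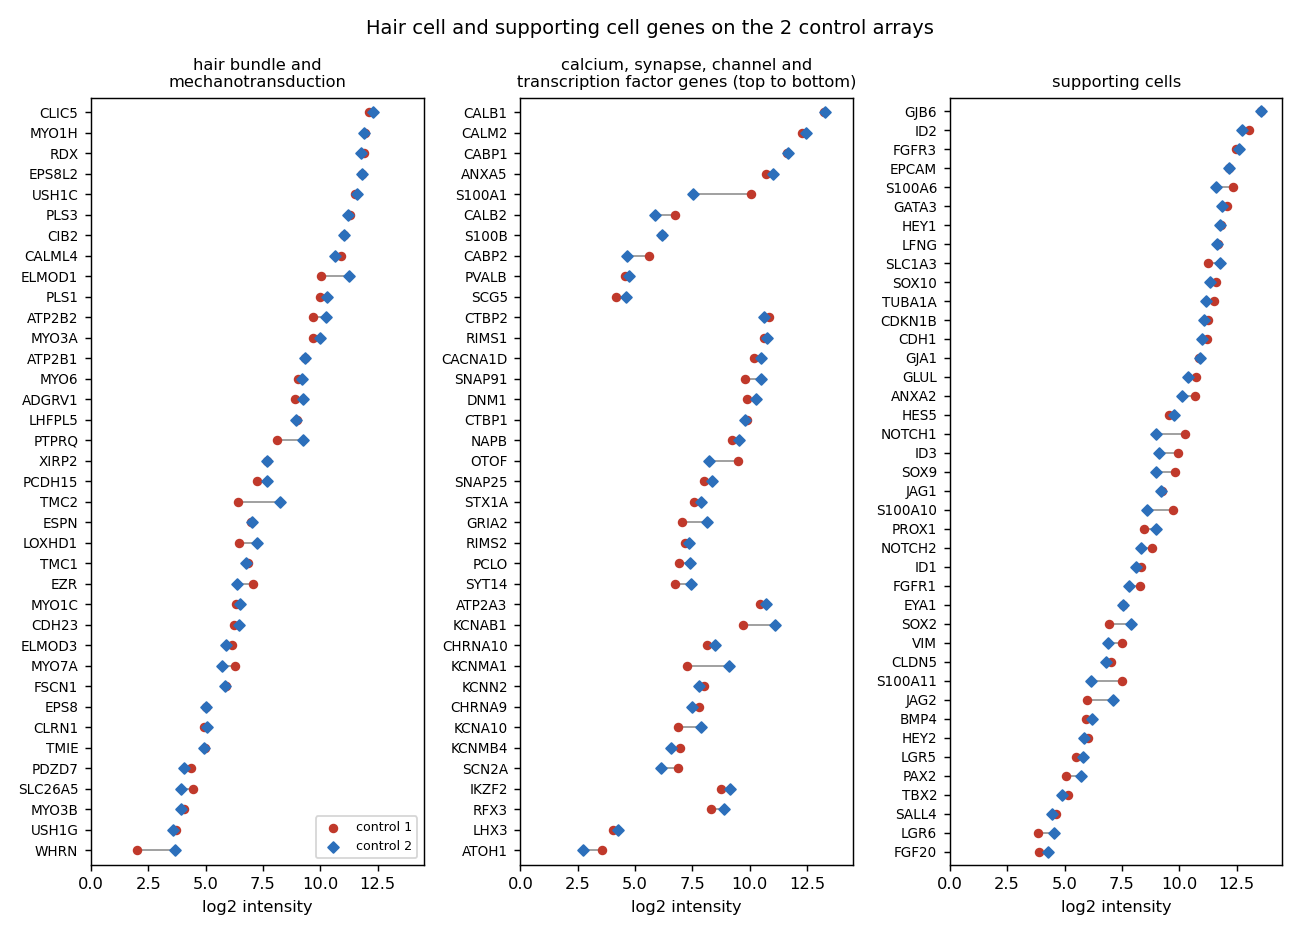
Log2 intensity on control 1 (circles) and control 2 (diamonds) of all measured hair bundle genes, of the calcium-binding genes, the 14 brightest synapse genes, the 9 brightest channel genes and the transcription factors of HCs, and of all measured SC genes. In many rows the symbols touch or overlap, and S100A1, KCNMA1, KCNAB1 and TMC2 are among the wider gaps.

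The matrix of the ear was carried by few bright genes. Of 13 measured genes of the tectorial membrane and ear matrix (16 listed), 3 were in the brightest 10%, namely TECTB, OTOGL, otogelin-like, at 11.72 and 11.67, and OTOA, otoancorin, at 11.71 and 11.24. TECTA, alpha-tectorin, was at 6.46 and 5.89 and OTOG, otogelin, at 5.38 and 4.95. COCH, cochlin, was at 7.58 on control 1 and 5.25 on control 2. OC90, a protein of otoconia, was at 5.94 and 2.88. COCH and OC90 were the members that differed by over 2 on their brightest probe set. Of the 5 probe sets of OC90, 2 passed 2, with differences from -0.29 to 3.71. All 3 probe sets of OTOA were higher on control 1, from 0.47 to 2.85, and 1 passed 2.

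All 37 collagens listed were measured, with a median of 6.56, 4 in the brightest 10% and 7 under 32. COL14A1, which binds to collagen fibrils, was at 12.28 and 12.37, COL24A1 at 12.21 and 11.95, COL18A1 of basement membranes at 11.85 and 11.68 and COL5A1 at 10.58 and 10.25. COL9A1 (10.51 and 9.58) and COL11A1 (10.45 and 9.73), collagens of cartilage, were close to the brightest 10%. COL2A1 was at 8.11 and 7.88. The fibrillar collagen COL1A1 stood apart, at 9.93 on control 1 and 5.36 on control 2, on a single probe set. COL1A2, whose product joins that of COL1A1 in the same collagen, was at 6.42 and 6.68 on its brightest probe set, but its 8 probe sets disagreed, with differences from -0.52 to 4.36 and 2 of them higher on control 1 by over 2. COL12A1 (8.39 and 5.71), COL6A1 (5.85 and 3.08) and COL7A1 (2.54, and at an intensity of 1 on control 2) were also higher on control 1 by over 2, and COL9A2 was higher on control 2 (0.42 and 2.73). The 3 probe sets of COL6A1 passed 2 in both directions, from -2.93 to 3.27.

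Of 20 basement membrane genes, the proteoglycan gene AGRN (10.88 and 11.13) and the laminin gene LAMC1 (10.75 and 10.29) were in the brightest 10%. LAMB1 (9.23 and 9.19) and the fibronectin gene FN1 (8.97 and 9.08) were even between the pools. NID1, nidogen, was at 8.18 and 5.59, but its 4 probe sets disagreed, the lowest difference being -2.01.

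The 54 proteoglycans and other matrix genes measured had a median of 5.05, with 7 in the brightest 10% and 18 under 32. TIMP3, an inhibitor of metalloproteinases (11.73 and 11.91), and MATN4, a matrilin (11.44 and 11.56), were the brightest. SPARC was at 11.36 and 10.33, P4HB and P4HA1, subunits of the enzyme that hydroxylates collagen, were at 11.59 and 11.34 and at 10.57 and 10.78, and the reelin gene RELN was at 10.50 and 10.73. Of the 54 genes, 7 were higher on control 1 by over 2 and 0 on control 2, beside 1.23% and 0.823% of all genes. Some small leucine-rich proteoglycans were among the 7 and are described with the pool differences. Others of that family were not, with BGN, biglycan, at 7.24 and 5.62, FMOD at 3.13 and 2.22, KERA at 3.70 and 2.98 and PRELP at 3.19 and 4.36. All 4 probe sets of BGN were higher on control 1, from 0.16 to 1.87. FMOD, KERA and PRELP were under 32 on both arrays, where a difference is imprecise.

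Genes of energy metabolism and protein synthesis were frequent in the brightest 10%. Of 274 genes in 8 metabolic lists, 147 were in it. The 66 ribosomal protein genes had a median of 12.29, with 59 of them in the brightest 10%. Of the 66, 50 were higher on control 1, beside 48.6% of all genes, and the median difference over all 66 was 0.15. Of 21 translation factors, 17 were in the brightest 10%.

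Glycolysis was represented by 19 genes with a median of 10.71, 10 of them in the brightest 10%. LDHB, a lactate dehydrogenase subunit, was at 12.77 and 12.88, LDHA, the other subunit, at 10.69 and 11.36, and GAPDH at 12.50 and 12.51. PFKP, a phosphofructokinase, was at 11.61 and 11.36. HK1, hexokinase 1, was at 10.16 and 9.95, and HK2 at 4.0 and 3.76. The glucose transporter SLC2A1 was at 9.46 and 9.55. No gene of the list differed by over 2, the largest excess on control 1 being 0.37.

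The respiratory chain had 34 of 64 genes in the brightest 10%, led by ATP5I of ATP synthase (12.51 and 12.58) and COX4I1 of cytochrome c oxidase (12.51 and 12.56), and 0 differed by over 2. Of the list for the citric acid cycle, 5 of 19 genes were in the brightest 10%. MDH1, the cytosolic malate dehydrogenase, was first at 12.47 and 12.70, while the mitochondrial form MDH2 was at 9.48 and 9.72. Energy transfer by creatine and adenylates had 8 of 19, among them CKB, the brain type creatine kinase, at 12.23 and 12.25. CKMT2, a mitochondrial creatine kinase of muscle, was at an intensity of 1 on control 1 and at 0.08 on control 2.

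Antioxidant and iron proteins had 13 of 39 genes in the brightest 10%. TXN, thioredoxin, was at 12.84 and 12.91, FTH1, ferritin heavy chain, at 12.54 and 12.24, SOD1 at 12.12 and 12.32 and PRDX1 at 11.80 and 11.83. The extracellular superoxide dismutase SOD3 was the uneven one, at 7.36 and 4.43, and GSTA3 (6.64 and 3.05) and HMOX1 (5.42 and 2.72) also differed by over 2. Lipid genes were lower, with a median of 5.70 and 1 of 27 genes in the brightest 10%, HMGCS1 of cholesterol synthesis at 10.09 and 10.86.

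Genes of cell division were low in the resting papilla. Of 24 measured, 0 were in the brightest 10% and 13 were under 32 on both arrays, with a median of 4.61. PCNA, which also serves DNA repair, was the brightest, at 8.16 and 8.41. CDK1 was at 7.35 and 6.86, TOP2A at 5.18 and 5.79 and MKI67, the proliferation marker Ki-67, at 2.47 and 3.65. Of 19 genes of the interferon response, 0 were in the brightest 10% and TRIM25 was the brightest, at 7.74 and 7.84. Of 23 immediate early and stress genes, 5 were in the brightest 10%, led by JUN at 11.71 and 12.22, while FOS was at 2.09 and 4.25. Heat shock proteins and chaperones had 17 of 28 in it, with HSPA8 at 13.03 and 13.06, HSP90AA1 at 12.72 and 12.78 and HSPA5 of the endoplasmic reticulum at 12.56 and 12.84.

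Markers of other tissues that a dissection could hold were checked next, and several bright members of these lists are shared with the sensory epithelium. Of 30 leukocyte genes, 12 were under 32. PTPRC, which marks all leukocytes, was at 4.50 and 4.64 and CD4 at 1.0 and 1.58, while CD3E, of the T cell receptor complex, was at 10.03 and 9.69 on its single probe set. Of 18 genes of endothelium, 0 were in the brightest 10% and FLT4 led at 7.47 and 7.18. Of 21 muscle genes, 3 were in the brightest 10% and 8 were under 32. Of striated muscle, MYOD1 (1.52 and 1.51) and MYLPF (an intensity of 1 on both arrays) were dim, but the troponin C genes TNNC1 (10.16 and 10.81) and TNNC2 (8.88 and 9.54) were bright and ACTA1 was at 6.02 and 5.97. Of smooth muscle, MYH11 was at 10.81 and 10.62 but ACTA2 at 1.06 and 2.05. The pigment genes TYR (4.08 and 3.59) and PMEL (an intensity of 1, and 1.77) were low. In the same list, KIT (9.80 and 7.66) and MITF (7.73 and 7.88) were brighter.

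Of 19 genes of neurons, 3 were in the brightest 10%, GATA3, UCHL1 (11.56 and 11.93) and the neurofilament gene NEFM, which was at 9.84 on control 1 and 11.65 on control 2. All 3 probe sets of NEFM were lower on control 1, with differences from -2.08 to -0.35. NEFL was at 5.16 and 6.22, NEFH at 3.07 and 2.39 and GAP43 at 3.62 and 3.97. Of 9 genes of Schwann cells and glia, MBP, a myelin protein, was at 9.80 and 9.76 and PMP22 at 8.94 and 6.91. Differences of the 3 probe sets of MBP ran from -0.07 to 2.65 and those of PMP22 from -0.17 to 2.03. The ATPase subunit ATP1B3 (12.09 and 12.06) and the tight junction genes CLDN1 (11.72 and 11.36) and CLDN3 (10.96 and 10.86) led the list of endolymph ion transport. Its other members were mixed. KCNQ1 (8.22 and 7.69) and SLC12A2 (7.05 and 7.31) were above the median of all genes (6.45). BSND, the barttin gene of ion-transporting ear epithelium, was at 5.01 and 5.69, KCNE1 at 4.85 and 4.41 and SLC26A4, pendrin, at 3.21 and 3.26.

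The 2 control pools were then compared gene by gene. Of 13009 genes, 160 (1.23%) were higher on control 1 by over 2 on the log2 scale, which is over 4-fold, and 107 (0.823%) were higher on control 2, together 267 (2.05%). The numbers were less alike among genes with a level over 7 on at least 1 array. Of these 6037 genes, 54 (0.894%) were higher on control 1 and 1 (0.0166%) on control 2. Among the dimmest genes, with a mean of 5 or less, the directions were about even, at 99 and 105 genes. The lower value was an intensity of 1, the lowest of the table, in 15 of the 160 and 13 of the 107.

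The spread between the pools fell with brightness. The median absolute difference was 0.50 for genes with a mean level up to 5, 0.31 from 5 to 7, 0.25 from 7 to 9, 0.20 from 9 to 11 and 0.15 above 11. In the last class, 1 of 712 genes differed by over 2, GSN, an actin-severing protein, at 13.36 and 11.24. NEXN, an actin-binding protein, followed at 11.72 and 8.5, and all of its 3 probe sets were higher on control 1 by over 2.

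**Figure D3:**
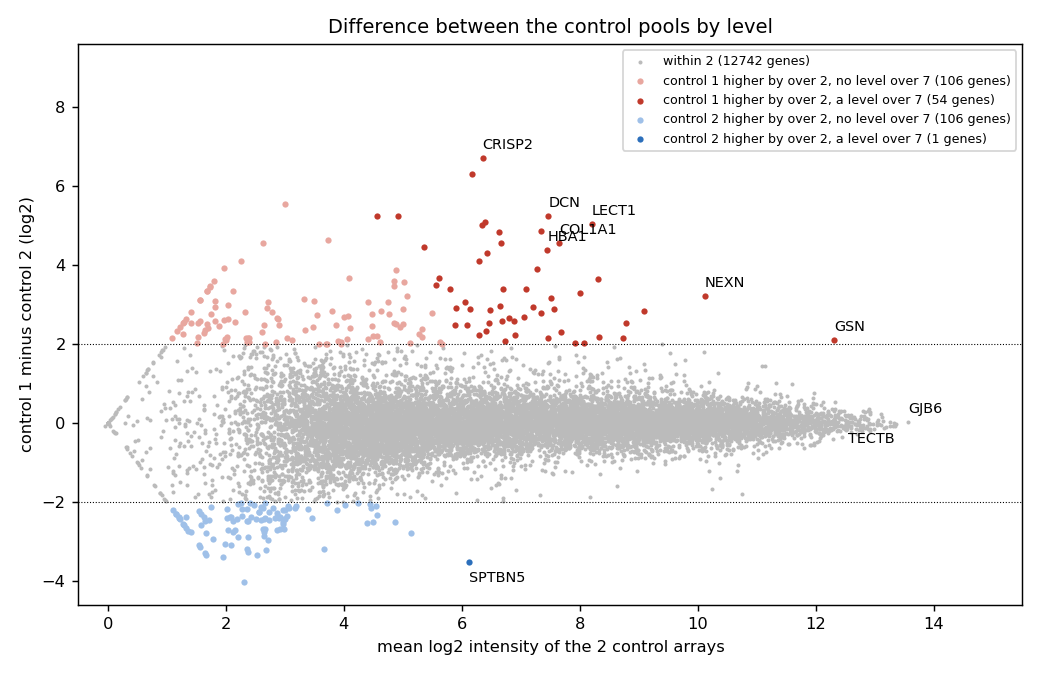
Difference between the control arrays (control 1 minus control 2, log2) against their mean log2 intensity for 13009 genes, with dotted lines at differences of 2 and -2. Dark red points (54 genes) lie above the upper line with a level over 7 on at least 1 array and extend to GSN at the bright end, and SPTBN5 is the only dark blue point.

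Of the 15 largest differences in this direction among genes with a level over 7 on at least 1 array, 5 were those of genes in the lists of connective tissue, cartilage and matrix. DCN, decorin, was at 10.09 on control 1 and 4.84 on control 2, and LUM, lumican, at 9.04 and 4.20, both small leucine-rich proteoglycans of fibrous tissue. EPYC, epiphycan, of the same family, was at 7.17 and 1.94, and OGN, osteoglycin, at 6.11 and 3.58. LECT1, which encodes chondromodulin, an inhibitor of vessel growth in cartilage, was at 10.73 and 5.68. COL1A1, given above, was the other gene of the 5, and OGN is outside the 15. Each of these 6 genes has 1 probe set, so that no other measurement on the array bears on it. Matrix lists held 124 of the 13009 genes, and the lists of other cell types, which include connective tissue and cartilage, 184.

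Not all members of these lists moved with them. Of 27 fibroblast genes, 21 were higher on control 1, beside 48.6% of all genes, with a median difference of 0.69 (all genes -0.01). By over 2, 6 of the 27 were higher on control 1, beside 1.23% of all genes. Their summed intensity was 13.72 on control 1 and 13.17 on control 2 on the log2 scale. COL14A1 and PRRX1 (6.42 and 6.31) were nearly equal on both arrays, with no probe set past 2. COL3A1 was at 7.74 and 7.72 on its brightest probe set, but its 6 probe sets ran from -1.19 to 3.73 and 1 passed 2. Of 21 genes of cartilage and bone, 12 were higher on control 1, beside 48.6% of all genes. LECT1, EPYC and IBSP (4.58 and 2.58) were higher on control 1 by over 2, beside 1.23% of all genes. COL9A2 was higher on control 2 by over 2, beside 0.823% of all genes. COL2A1 and MATN3 (7.74 and 7.86) were within 0.3 between the pools. ACAN, aggrecan, was under 32 on both arrays (3.59 and 3.67), where a difference is imprecise. The share of other tissue in each pool was not measured, and its part in the differences was not tested.

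Some blood and vessel genes also differed by over 2. HBA1, an alpha-type globin, was at 9.64 and 5.26, and 2 of its 3 probe sets differed by over 2 and the third by 1.71. HBAD, another alpha-type globin, was at 7.45 and 6.13, with all of its 3 probe sets higher on control 1, from 0.52 to 1.32. HBBR was at 1.37 and 3.82 and the red cell anion exchanger SLC4A1 at 3.28 and 3.57. Both were under 32 on both arrays, where a difference is imprecise, and so were HBZ, TAL1, RHAG and EPB42 of this list. Of the 10 genes of red blood cells, 4 were higher on control 1, beside 48.6% of all genes. Of 18 genes of endothelium, 14 were higher on control 1 and 3 by over 2 (all genes 1.23%), namely VWF, von Willebrand factor (7.59 and 4.53), FLI1 (6.05 and 1.41) and CDH5 (5.63 and 3.58). Of these, 1 of 3 probe sets of VWF passed 2 and the lowest was -1.08. Of 30 genes of leukocytes, 0 differed by over 2 in either direction on the brightest probe set, beside 2.05% of all genes. Other probe sets did pass 2, with the highest difference 2.18 for CD74 and 2.00 for BLB1 and the lowest -2.07 for PTPRC.

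The largest difference of the comparison was that of CRISP2, a cysteine-rich secretory protein, at 9.71 and 2.99, on 2 of its 3 probe sets. GIF, which carries vitamin B12 in the gut of mammals, was at 9.32 and 3.01. CHRNA7, a nicotinic acetylcholine receptor subunit, was at 8.94 and 3.85, and LOC417962 at 8.84 and 3.83. ATP6V0D2, a subunit of the proton pump of vesicles and cell membranes, was at 8.95 and 4.38, and MYOF, myoferlin, at 9.78 and 4.92. The last pair passed 2 on 2 of 3 probe sets each.

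CCDC3 (7.53 and 2.30) and LRP2, megalin, an endocytic receptor (7.58 and 3.12), rested on 1 probe set each, of 3 and 9. TFPI2, a protease inhibitor of the extracellular matrix, was at 8.57 and 4.27. Over the 54 genes, 30 had several probe sets, and in 14 of these all probe sets were higher on control 1, while in 14 at least 2 passed the limit. AQP5, a water channel of secreting epithelia, was at 9.10 and 5.93 with all of its 3 probe sets past 2, and KIT, a receptor of pigment cells and other cells, was at 9.80 and 7.66. Of the 54, 16 were members of any of the 34 lists and 8 of a list of matrix, connective tissue or cartilage. Most of the 54 were thus in no list, but the lists also cover only a small part of the 13009 genes. They hold 89 genes of HCs, 52 of SCs and otic factors and 124 of matrix. Another 184 are of other cell types, connective tissue and cartilage included, 274 are metabolic and 123 structural, with overlaps. Whether list members were more frequent among the 54 than among all genes was not tested.

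On the side of control 2, among genes with a level over 7 on at least 1 array, the differences were smaller. SPTBN5, a beta spectrin, was at 4.36 on control 1 and 7.88 on control 2. Of its 9 probe sets, 1 passed 2, and the highest difference among them was 1.12 in the other direction. The next genes under this limit on the level did not reach 2, namely ZGRF1 (5.70 and 7.68), LOC100859665 (5.29 and 7.23) and DLK1, a Notch ligand relative (5.75 and 7.65). KCNMA1, TMC2 and NEFM, described above, came next. Of these, KCNMA1 and TMC2 are from the HC lists, which held 89 of the 13009 genes. Among dimmer genes 106 passed 2, and the HC gene KCNJ2, given above, was one of them. The rest of the 15 genes with a level over 7 were TMEM121, LCAT, AADAC, CCDC107, CFAP69, SLC22A13L, ANKDD1B and ZNRF2, with differences from -1.70 to -1.40. LCAT, an enzyme that esterifies cholesterol, was the brightest of these 8, at 9.41 and 11.08.

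The limit of 2 cuts through a continuous distribution. Just inside it were PMP22 (a difference of 2.03), FKBP5 (2.04) and FAM13A (2.09), and just outside it GGT7 (2.00 after rounding), ZGRF1 (-1.98) and PPP1R1C (1.96).

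**Figure D4:**
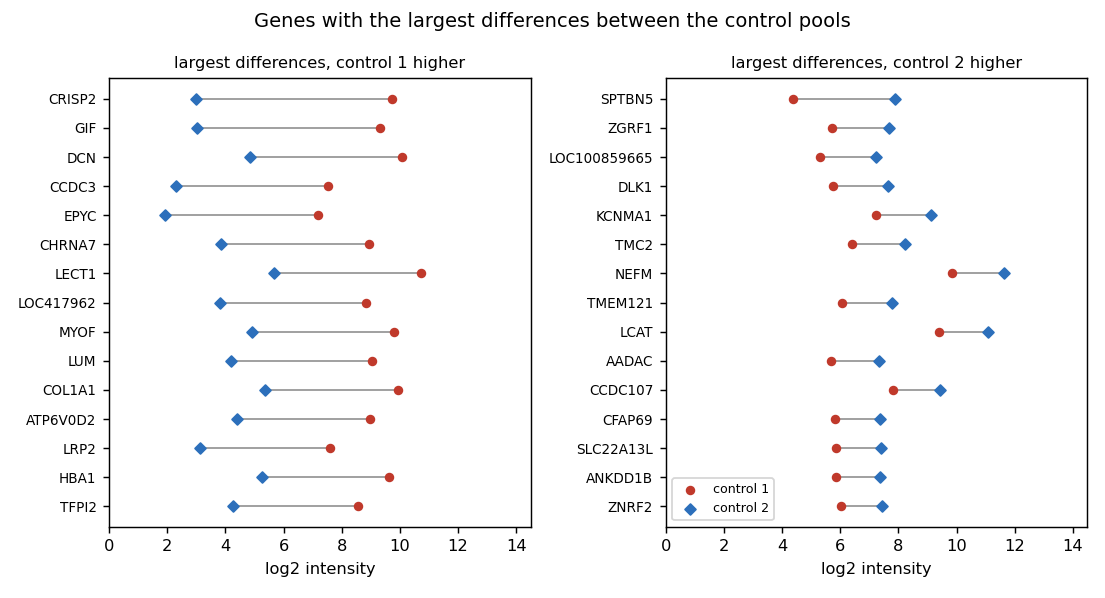
Log2 intensity on control 1 (circles) and control 2 (diamonds) of the 15 genes per direction with the largest difference and a level over 7 on at least 1 array. The gaps on the left run from 6.72 for CRISP2 to 4.30 for TFPI2, and those on the right from -3.52 for SPTBN5 to -1.40 for ZNRF2 (control 1 minus control 2).

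By kind of list, the shares of sensory and metabolic genes past 2 were near those of all genes (1.23% on control 1 and 0.823% on control 2). Of 89 HC genes, 1 was higher on control 1 by over 2 (S100A1) and 1 on control 2 (KCNJ2). Of the 89, 58 were higher on control 2 by any amount, beside 51.1% of all genes. Of 52 genes of SCs and otic factors, 1 was higher on control 1 by over 2 (OTX2). Of 274 metabolic genes, 3 were higher on control 1 and 2 on control 2. Of 124 matrix genes, 14 were higher on control 1 by over 2 and 1 on control 2. Whether these shares differ beyond chance was not tested.

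Added control transcripts also differed between the arrays. The 27 probe sets of the hybridization controls (bioB, bioC, bioD and cre), which are added with the labelled sample, had a median of 9.32 on control 1 and 9.24 on control 2. Probe set by probe set, 5 of the 27 were higher on control 1, with differences from -0.83 to 0.16 and a median difference of -0.48. The 36 probe sets of the poly-A controls (dap, lys, phe and thr), transcripts that can be added to the RNA before labelling, had a median of 6.28 on control 1 and 3.25 on control 2, and 34 were higher on control 1. The gap between the 3′ and 5′ probe sets of the same transcript was 2.46 and 3.31 for GAPDH, 3.51 and 3.62 for actin and 1.73 and 1.85 for EF1A. Their part in the differences between the pools was not tested.

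**Figure D5:**
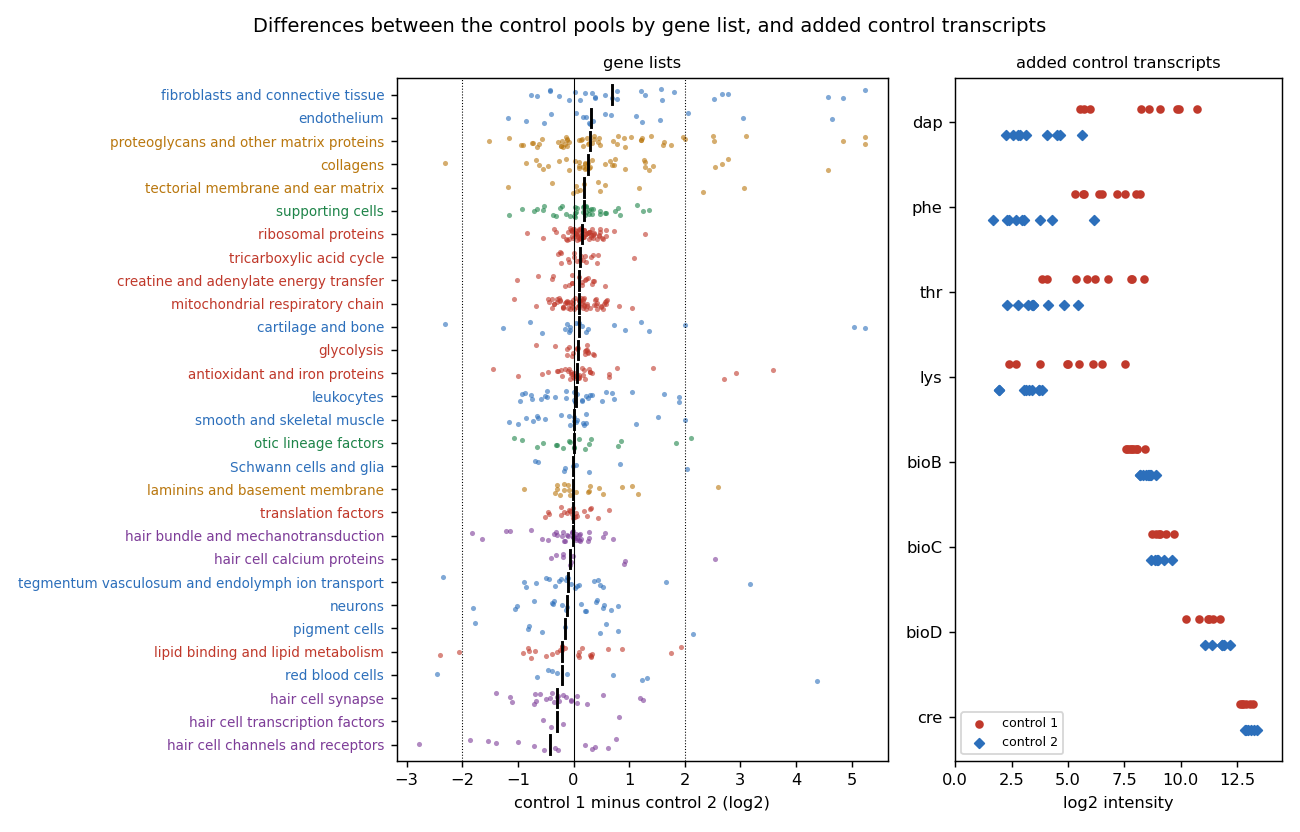
Left, difference between the control arrays (control 1 minus control 2, log2) for members (points) of the gene lists, cytoskeletal, stress and division lists left out, with list medians as black bars and dotted lines at 2 and -2. Right, log2 intensity of the probe sets of added control transcripts on control 1 (circles) and control 2 (diamonds), where dap reaches 10.69 on control 1 and 5.64 on control 2, while cre lies between 12.63 and 13.38 on both.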

How the data were processed

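Total RNA of pooled basal BP tissue was labelled by a small-sample protocol and hybridized to the Affymetrix Chicken Genome Array, and the 2 control arrays were used. The deposited values are intensity values computed by the authors. Their methods name dChip, the processing notes list MAS5 with no version, and which of them gave the values was not settled. They are on a linear scale with a lowest value of 1 (561 and 560 values per array) and were transformed to log2 with no further normalization. Of all values, 54.4% and 53.4% lie under 32, where the precision is low. No value has a depth, and the number of arrays limits the precision. No column was without a sample (0 in all).

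Control probe sets were left out, symbols came from the annotation table of the platform, which can be old, and a gene was given by the probe set with the highest mean. Some of these probe sets may also bind related transcripts. The differences were counted past 2, with no test. Genes named are the 30 brightest, the brightest members of the lists and the members described by counts, the 15 largest pool differences per direction with a level over 7, and list members past 2. NEXN, HINTW and the genes nearest the limit of 2 were chosen after their values were seen. The members and lists were chosen with earlier results of these data known. The rules were tested on simulated data. Alternatives were quantile normalization, centring, a floor or an offset on low values, a filter on the mean, other choices of probe sets, and each array alone. Python 3.11.15, pandas 2.3.3, numpy 2.4.6 and matplotlib 3.10.9 were used.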

Additional observations from a re-analysis of the deposited data

Results flagged for a closer look

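Among the probe sets for added control transcripts, which enter no count of genes, the brightest 3′ probe set of the poly-A control dap was at 10.69 on control 1 and at 5.64 on control 2. It was named because a signal of this size stood in data outside the gene comparisons and was present on 1 array far above the other. Its cause was not tested.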

How the results depend on the processing

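The number of genes over 2 rested on the treatment of low values. From 160 higher on control 1 and 107 on control 2, a floor of 32 left 55 and 1, adding 16 to each value before log2 left 54 and 1, and keeping only genes with a mean level over 7 left 24 and 0. Of the 55 genes, 54 were among the 160. Each of these settings takes dim genes out by its construction. Quantile normalization (167 and 97), centring (161 and 107) and the mean over probe sets (127 and 94) stayed within 1.5 times. So did leaving out probe sets that can bind several transcripts (169 and 117). Requiring all probe sets of a gene to pass left 112 and 87, but a gene with 1 probe set meets this by construction. Among genes with several probe sets, 4 of 52 higher on control 1 and 4 of 24 higher on control 2 passed. The 4418 genes with a level over 8 became 2261 when the probe sets of a gene were averaged, since dimmer sets then count, and 4401 to 4502 with either array alone. Averaging probe sets lowered the median level of a list by up to 3.05, so levels belong to the brightest probe set. Leaving out probe sets that can bind several transcripts shifted list medians by -2.87 to 0.32 and left 3471 genes over 8. Counts of differences cannot be had from a single array. No paired analysis was possible because only the control group was used. With 2 arrays, a difference between pools and one between single hybridizations cannot be told apart.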
